A study of Canis lupus familiaris with 6 samples.

Results

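The genes described here encode enzymes that remove superoxide and peroxides: catalase (CAT), the superoxide dismutases SOD1 and SOD2, the peroxiredoxins PRDX1 to PRDX6, and thioredoxin (TXN), the small protein that gives peroxiredoxins back their reducing power. They were found by their symbols in the table of 31512 genes, and 8 of the 10 symbols had a row. PRDX5 and TXN had none under their own symbols, and the unnamed rows described as these proteins are given separately. All 8 genes had a mean of at least 1 FPKM (the fragments on each gene relative to its length and to a size set for the library) and so entered the test of 9847 genes.

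Whole blood was drawn from adult Beagle dogs on day 30 of feeding, and 1 RNA library was made for each of 3 control dogs and 3 CPP-Se dogs. All dogs ate the same maintenance food. The control dogs also ate a snack without CPP-Se, and the CPP-Se dogs ate a snack that contained it. CPP-Se is a chelate of selenium with casein phosphopeptides, which are fragments of a milk protein. The comparison asks whether blood RNA of the antioxidant enzymes differed between the groups after the feeding period.

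Superoxide dismutases turn superoxide into hydrogen peroxide, with copper and zinc in the cytosolic enzyme (SOD1) and manganese in the mitochondrial one (SOD2). Catalase and the peroxiredoxins then remove hydrogen peroxide, catalase with a heme group and the peroxiredoxins with a reactive cysteine. Catalase, PRDX2 and SOD1 are abundant proteins of red cells, while SOD2 is known for its strong induction by inflammatory signals in phagocytes. None of these 10 proteins contains selenocysteine, the amino acid by which selenium enters selenoproteins, although thioredoxin is kept reduced by thioredoxin reductases, which do.

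Reads could be recovered from FPKM and gene length, and the genes of a dog held 6598173 to 8067034 reads. The 8 hemoglobin genes of the table held 48.7% to 55.9% of these reads in 5 dogs and 36.6% in CPP-Se replicate 2, which stands apart. In the same dog, the library size that the deposited FPKM imply was 1.65 times the reads on genes, against 0.882 to 1.05 times in the others. It was below the reads on genes in control replicate 2 and CPP-Se replicates 1 and 3. The deposited FPKM are thus not scaled to a plain total of reads. Median ratio scaling, which brings the typical gene of each dog to a shared level, had factors of 0.981 to 1.005 on these FPKM. For a common total of reads on genes the factors were 0.835 to 1.56. The hemoglobin genes and 17 of 18 red cell marker genes were above the minimum, and markers of neutrophils, monocytes, T cells, B cells and platelets were found too. The monocyte marker FCN1 was at 0 in every dog, and no row carried the symbols CD14 and PF4. Nothing in the sources used here pairs dogs of the 2 groups.

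Of the 8 genes, SOD2 had the highest level and PRDX3 the lowest, and SOD2 and CAT were lower in every CPP-Se dog than in every control dog. None of the 8 was a DEG (adjusted p under 0.05 with at least a 1.5-fold difference, limma on log2(FPKM + 1), Benjamini-Hochberg adjustment over 9847 genes, lowest adjusted p of the 8 genes 0.250). Of all genes tested, 0.0305% were DEGs. The unadjusted p was under 0.05 for SOD2 and CAT, 2 of the 8 (25.0%), against 16.0% of all genes tested. This count depends on the scaling and on single dogs. It stayed at 2 (SOD2 and CAT) with median ratio scaling, where 1565 of 9821 genes passed. It was 0 of 8 with a common total of reads on genes, where 836 of 9900 genes passed, and 1 (PRDX1) with a common total without hemoglobin reads, where 1385 of 9856 passed. It was 0 without control replicate 1 (962 of 9859 genes) or control replicate 2 (1269 of 9853), 1 (SOD1) without CPP-Se replicate 1 (1277 of 9792), and 3 (SOD2, CAT and PRDX6) without CPP-Se replicate 3 (1635 of 9797). The 3 dogs of the CPP-Se group lay below all control dogs for 2 of the 8 (25.0%), against 12.6% of all genes tested, and above all control dogs for 0 of the 8, against 10.4%. With so few genes, these shares do not set the enzymes apart from the rest of the table. The median log2 fold change of the 8 was -0.28, with 6 negative and 2 positive values, and that of all genes tested was -0.00433.

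**Figure D1:**
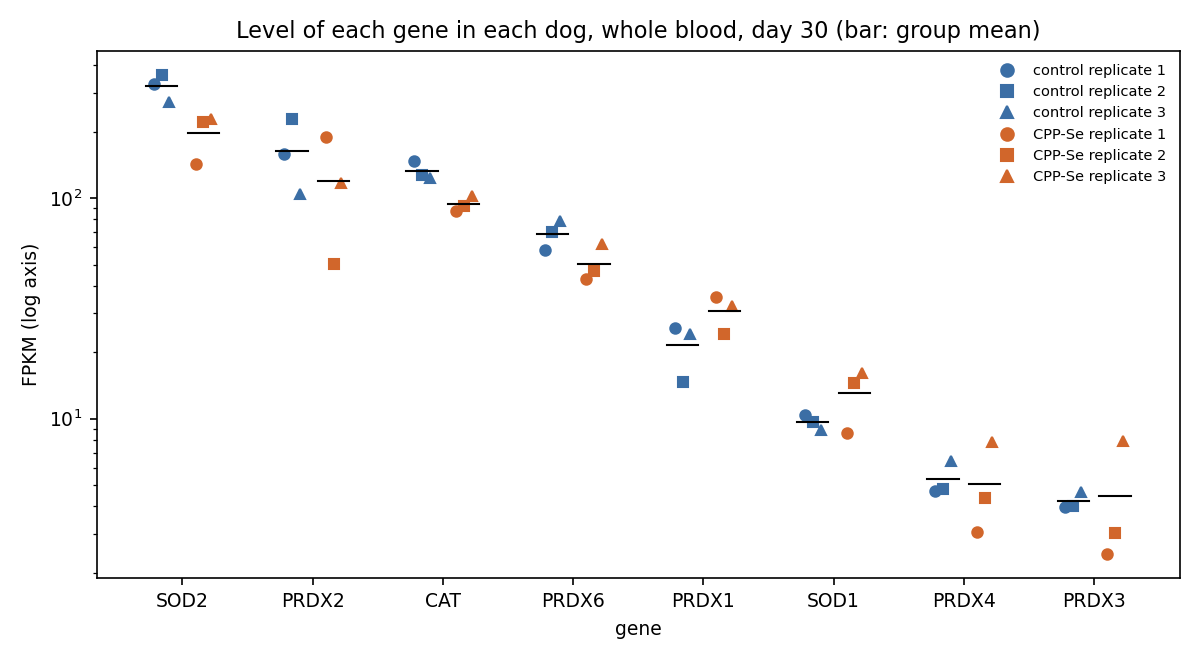
FPKM (log axis) of the 8 genes in each dog, with control dogs in blue, CPP-Se dogs in orange, a marker shape per replicate number and a bar at each group's mean. On the FPKM as deposited, the 2 groups are separate only for SOD2 and CAT, and the levels run from a mean of 260.04 FPKM for SOD2 to 4.33 FPKM for PRDX3.

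SOD2 (ENSCAFG00000000671, chromosome 1, 48836262 to 48955706, minus strand, in the genome of Ensembl release 100, as for all positions here) encodes the manganese superoxide dismutase of mitochondria. Its level was 330 FPKM, 363 FPKM and 273 FPKM in control replicates 1, 2 and 3, and 143 FPKM, 221 FPKM and 230 FPKM in CPP-Se replicates 1, 2 and 3. The lowest control dog thus lay above the highest CPP-Se dog, and CPP-Se replicate 1 was the lowest of all. The means were 322 ± 45.3 FPKM for control and 198 ± 47.6 FPKM for CPP-Se (SD over n = 3 dogs in each group, likewise for the genes that follow), so the CPP-Se mean was 0.615 times the control mean. The log2 fold change was -0.72 (standard error 0.25, 95% interval -1.30 to -0.13, Benjamini-Hochberg adjusted p = 0.250 in limma). The 2 groups overlapped when FPKM were rescaled to a common total of reads other than those on hemoglobin genes. There CPP-Se replicate 2 had 272 FPKM and control replicate 3 had 267 FPKM. With median ratio scaling the groups did not overlap.

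CAT (ENSCAFG00000006941, chromosome 18, 33383005 to 33422447, minus strand) encodes catalase, the heme enzyme of peroxisomes and red cells that splits hydrogen peroxide. It had 147 FPKM, 127 FPKM and 124 FPKM in the control dogs and 87.4 FPKM, 92.3 FPKM and 103 FPKM in the CPP-Se dogs. The groups did not overlap, and the spread within each was the smallest of the 4 most abundant of the 8 genes, at 9.65% of the mean in the control group and 8.21% in the CPP-Se group. The means were 133 ± 12.8 FPKM and 94.1 ± 7.73 FPKM, and the log2 fold change was -0.49 (standard error 0.18, 95% interval -0.91 to -0.07, Benjamini-Hochberg adjusted p = 0.265 in limma). With a common total of reads other than hemoglobin, the CAT levels still did not overlap, at 119 to 140 FPKM in the control dogs and 86.3 to 114 FPKM in the CPP-Se dogs. With a common total of all reads on genes they did, and with median ratio scaling they did not.

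Levels of white cell markers are given beside these values, and no gene of these lists was a DEG (lowest Benjamini-Hochberg adjusted p = 0.138 in limma). Of all genes tested, 12.6% were lower and 10.4% higher in the CPP-Se dogs without overlap. The summed level of 9 monocyte marker genes in the table was 844 to 994 FPKM in the control dogs and 404 to 470 FPKM in the CPP-Se dogs, and 7 of the 8 tested were lower without overlap. For 9 neutrophil genes the sum was 2298 to 3082 FPKM in the control dogs and 1771 to 2267 FPKM in the CPP-Se dogs, with 4 of 9 lower without overlap. Of 11 inflammatory NF-kappa B genes tested, 5 were lower and 1 higher without overlap. Among the lower was NFKBIA, the inhibitor of NF-kappa B, at 36.9 to 57.1 FPKM against 20.8 to 26.2 FPKM. The higher gene was CCL4, at 0.854 to 1.36 FPKM against 3.60 to 9.10 FPKM. The subunit genes NFKB1, RELB and NFKB2 overlapped, with log2 fold changes of -0.15, -0.04 and 0.05. T cell markers went the other way from monocyte and neutrophil markers, with 8 of 12 higher without overlap. Their sum was 112 to 206 FPKM in the control dogs and 238 to 317 FPKM in the CPP-Se dogs. Of the B cell markers, 5 of 8 were higher without overlap. These counts and sums are on the FPKM as deposited and depend on the scaling. With a common total of reads on genes, 3 monocyte, 0 neutrophil and 0 NF-kappa B genes were lower without overlap, and 10 T cell and 2 B cell genes were higher, against 12.6% of all genes in either direction. With a common total without hemoglobin reads, 7 monocyte, 2 neutrophil and 2 NF-kappa B genes were lower, and 9 T cell and 6 B cell genes were higher, against 19.8% of all genes. The sums of the neutrophil and NF-kappa B lists overlapped under both scalings and that of the B cell list under the first, while the monocyte and T cell sums overlapped under neither. NFKBIA overlapped under the first and CCL4 under neither. The part of the white cells in the levels of SOD2 and CAT was not tested. In whole blood RNA, fewer cells of a type and less RNA per cell cannot be told apart.

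PRDX2 (ENSCAFG00000017163, chromosome 20, 49352266 to 49356682, plus strand) encodes the peroxiredoxin of red cells. It had 159 FPKM, 227 FPKM and 104 FPKM in the control dogs and 190 FPKM, 50.3 FPKM and 117 FPKM in the CPP-Se dogs. The groups overlapped, and PRDX2 varied most of these 4, with an SD of 37.9% of the mean in the control group and 58.5% in the CPP-Se group. The low value of 50.3 FPKM belonged to CPP-Se replicate 2, the dog with 36.6% of its reads on hemoglobin genes. The log2 fold change was -0.57 with all dogs (standard error 0.49, 95% interval -1.71 to 0.57) and -0.06 without CPP-Se replicate 2. It was -0.30 without control replicate 2, -0.86 without control replicate 3 and -1.004 without CPP-Se replicate 1 (Benjamini-Hochberg adjusted p = 0.414 in limma), so its size depends on which dogs are included. The 17 red cell markers tested had a median log2 fold change of 0.53. Of these, 3 were higher and 0 lower without overlap, against 10.4% and 12.6% of all genes tested. With a common total of reads on genes 6 were higher, against 12.6% of all genes in either direction. Without hemoglobin reads 5 were higher, against 19.8%. The summed level of all 18 was 1741 to 4167 FPKM in the control dogs and 2590 to 4249 FPKM in the CPP-Se dogs. An overlapping gene on the other strand, RNASEH2A, shares 2902 bases of the PRDX2 interval and had a mean of 60.5 reads per dog against 1064 on PRDX2.

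**Figure D2:**
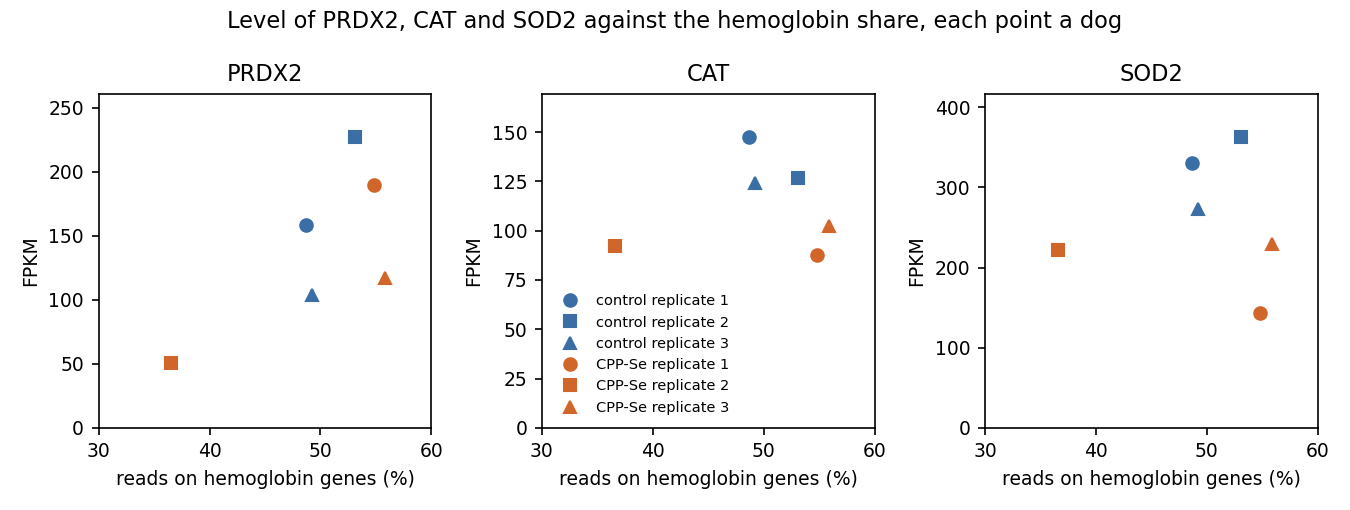
FPKM of PRDX2, CAT and SOD2 (vertical axes, from 0) against the percentage of reads on hemoglobin genes (horizontal axis, from 30 to 60), each point a dog, blue for control and orange for CPP-Se. CPP-Se replicate 2, at 36.6%, has the lowest PRDX2, while its CAT and SOD2 lie among those of the other CPP-Se dogs.

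PRDX6 (ENSCAFG00000014579, chromosome 7, 25663579 to 25675754, minus strand) encodes the peroxiredoxin that works with 1 cysteine and also acts on phospholipids. Its level was 57.9 FPKM, 70.3 FPKM and 78.7 FPKM in the control dogs and 43.1 FPKM, 46.6 FPKM and 61.8 FPKM in the CPP-Se dogs. CPP-Se replicate 3 lay above control replicate 1, so the groups overlapped by this pair alone. The log2 fold change of PRDX6 was -0.45 (standard error 0.21, 95% interval -0.95 to 0.05, Benjamini-Hochberg adjusted p = 0.361 in limma).

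PRDX1 (ENSCAFG00000004567, chromosome 15, 14838652 to 14862971, plus strand) encodes a cytosolic peroxiredoxin that uses thioredoxin. It had 25.8 FPKM, 14.7 FPKM and 24.1 FPKM in the control dogs and 35.6 FPKM, 24.2 FPKM and 32.4 FPKM in the CPP-Se dogs. CPP-Se replicate 2 lay between the control dogs and the others were above them. In the main fit PRDX1 had the largest positive log2 fold change of the 8 genes, 0.52 (standard error 0.26, 95% interval -0.09 to 1.12, Benjamini-Hochberg adjusted p = 0.384 in limma). SOD1 had a larger one with array weights (0.37 against 0.35), and also without control replicate 2 or without CPP-Se replicate 1. With a common total of reads on genes, with or without those on hemoglobin genes, the groups of PRDX1 did not overlap. Leaving out control replicate 2, the dog with 14.7 FPKM, gave a log2 fold change of 0.27.

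SOD1 (ENSCAFG00000008859, chromosome 31, 26486274 to 26662815, plus strand) encodes the copper and zinc superoxide dismutase. Its level was 10.4 FPKM, 9.64 FPKM and 8.86 FPKM in the control dogs and 8.59 FPKM, 14.6 FPKM and 16.1 FPKM in the CPP-Se dogs. CPP-Se replicates 2 and 3 were above all control dogs and CPP-Se replicate 1 was below them. The log2 fold change was 0.36 (standard error 0.25, 95% interval -0.20 to 0.93). Without CPP-Se replicate 1 it was 0.62, with a Benjamini-Hochberg adjusted p of 0.294 in limma, and without CPP-Se replicate 3 it was 0.20, with an adjusted p of 0.716. These levels rest on 34 to 120 reads per dog, so counting error alone is about 13.3% of the level, more than the spread of 8.16% between the control dogs. The SOD1 row spans 176542 bases but has a gene length of 618 bases in the table, and its interval encloses SCAF4 on the other strand, which had a mean of 164 reads per dog against 56.8 on SOD1.

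PRDX4 (ENSCAFG00000013369, chromosome X, 19361731 to 19383719, plus strand) encodes the peroxiredoxin of the endoplasmic reticulum, and PRDX3 (ENSCAFG00000012109, chromosome 28, 29395581 to 29403745, minus strand) that of mitochondria. PRDX4 had 4.69 FPKM, 4.82 FPKM and 6.43 FPKM in the control dogs and 3.06 FPKM, 4.36 FPKM and 7.80 FPKM in the CPP-Se dogs. PRDX3 had 3.98 FPKM, 4.02 FPKM and 4.63 FPKM in the control dogs and 2.44 FPKM, 3.02 FPKM and 7.90 FPKM in the CPP-Se dogs. For both, CPP-Se replicate 3 was the highest of all dogs and CPP-Se replicates 1 and 2 were below every control dog. The log2 fold changes were -0.12 for PRDX4 (95% interval -0.81 to 0.57) and -0.07 for PRDX3 (95% interval -0.87 to 0.74). The sign depends on 1 library and on the scale: without CPP-Se replicate 3 the log2 fold changes were -0.42 for PRDX4 and -0.49 for PRDX3, without CPP-Se replicate 1 they were 0.13 and 0.20, and the mean of PRDX3 in FPKM was 1.06 times higher in the CPP-Se group. The levels of PRDX3 and PRDX4 rest on 30 to 96 reads per dog.

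**Figure D3:**
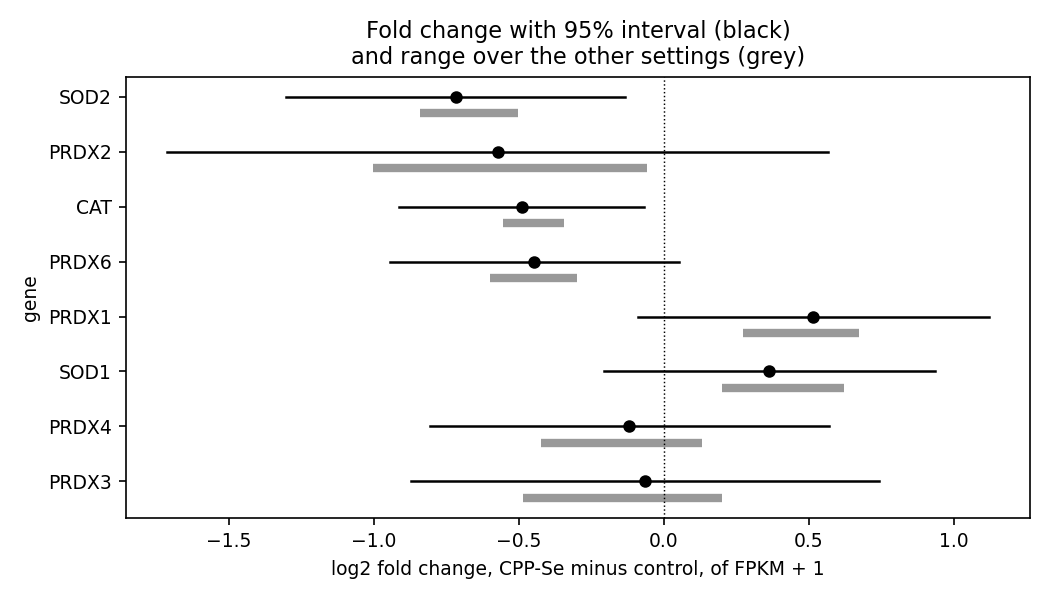
Log2 fold change (CPP-Se minus control, on FPKM + 1) of the 8 genes, with the 95% interval of the limma fit as a black line and the range over the other settings tried as a grey bar. The intervals of SOD2 and CAT lie below 0, those of the other genes include 0, and the grey bars cross 0 for PRDX4 and PRDX3.

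In the order of levels over all 6 dogs, SOD2, PRDX2 and CAT had means of 260.04 FPKM, 141 FPKM and 113 FPKM, followed by PRDX6 with 59.7 FPKM, PRDX1 with 26.1 FPKM, SOD1 with 11.4 FPKM, PRDX4 with 5.195 FPKM and PRDX3 with 4.33 FPKM. SOD2 was higher than PRDX2 in 5 of 6 dogs and PRDX2 higher than CAT in 4 of 6, so the order of these neighbours varied between dogs. CAT was above PRDX6 and PRDX6 above PRDX1 in 6 of 6 dogs, without overlap of their ranges, and so was SOD1 above PRDX4. PRDX1 was above SOD1 in 6 of 6 dogs although their ranges overlapped, and PRDX4 was above PRDX3 in 5 of 6. Among the genes tested, the mean level of SOD2 lay at percentile 98.1, that of CAT at 96.0 and that of PRDX3 at 45.0. The 8 genes summed to 624 to 820 FPKM in the control dogs and 457 to 576 FPKM in the CPP-Se dogs. These sums overlapped with a common total of reads on genes, at 619 to 724 FPKM and 459 to 714 FPKM, and with a common total without hemoglobin reads they did not. SOD2 was 27.9% of the 8-gene sum in CPP-Se replicate 1 and 39.9% to 48.5% in the other dogs.

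A ratio of 2 genes within a dog does not depend on how libraries were scaled. Of the 28 ratios between the 8 genes, 6 did not overlap between the groups (21.4%), against 20.9% of all pairs of tested genes (mean of at least 1 FPKM) that were above 0 in every dog, so the share is near that of such genes in general. All 6 set SOD2, CAT or PRDX6 over PRDX1 or SOD1, and all 6 were lower in the CPP-Se dogs. They reuse the same genes, so their shared direction is not 6 separate results. The ratios over SOD1 also rest on its 34 to 120 reads per dog, with a counting error of about 13.3%. SOD2 was 31.6, 37.6 and 30.9 times SOD1 in the control dogs and 16.7, 15.2 and 14.2 times SOD1 in the CPP-Se dogs, with means of 33.4 ± 3.71 and 15.4 ± 1.24 (SD, n = 3 dogs). CAT was 14.1, 13.2 and 14.0 times SOD1 in the control dogs and 10.2, 6.34 and 6.36 times in the CPP-Se dogs. CAT over PRDX1 was 5.71, 8.64 and 5.14 against 2.46, 3.81 and 3.17. The ratios of SOD2 to CAT overlapped, at 2.20 to 2.86 in the control dogs and 1.64 to 2.40 in the CPP-Se dogs.

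**Figure D4:**
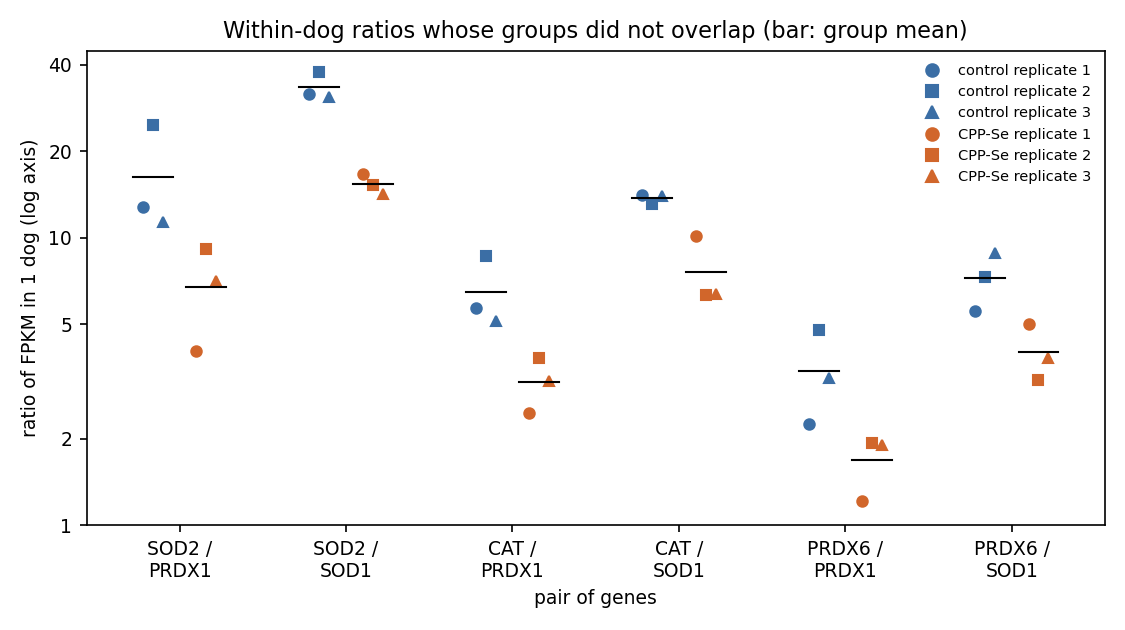
Ratio of FPKM of 2 genes within each dog (log axis) for the 6 of 28 pairs whose groups did not overlap, with control dogs in blue, CPP-Se dogs in orange and a bar at each group's mean. In all 6 pairs the CPP-Se dogs lie below the control dogs, with the widest relative gap for SOD2 over SOD1. The pairs share genes, and SOD1 rests on 34 to 120 reads per dog.

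No row of the table carried the symbol PRDX5 or TXN, but 11 unnamed rows were described as a peroxiredoxin, thioredoxin or superoxide dismutase, of which 4 were tested. ENSCAFG00000045013 (chromosome 18, 52750976 to 52754044), described as peroxiredoxin-5 of mitochondria, lies between CCDC88B and TRMT112, which are also the neighbours of PRDX5 in RefSeq's annotation of the assembly UU_Cfam_GSD_1.0. Its level was 342 FPKM, 273 FPKM and 187 FPKM in the control dogs and 402 FPKM, 219 FPKM and 143 FPKM in the CPP-Se dogs. With a mean of 261 FPKM it stood level with SOD2, and its groups overlapped widely, with a log2 fold change of -0.16 (95% interval -1.08 to 0.77).

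ENSCAFG00000032363 (chromosome 11, 65229475 to 65291227), described as thioredoxin, follows C11H9orf152 and shares 2141 bases with SVEP1 on the same strand, which was at 0 in every dog. RefSeq also places TXN near these genes. It had 5.35 FPKM, 8.94 FPKM and 9.66 FPKM in the control dogs and 7.25 FPKM, 6.62 FPKM and 9.98 FPKM in the CPP-Se dogs, with a log2 fold change of 0.01 (95% interval -0.58 to 0.61). The groups overlapped, and control replicate 1 was the lowest of all dogs. The other tested rows, a peroxiredoxin-1 copy (ENSCAFG00000045655) and a thioredoxin copy (ENSCAFG00000030164), held 3 to 16 and 1 to 11 reads per dog. Of the 11 unnamed rows, 4 were at 0 in every dog. How reads shared between such copies and the named genes were counted is not given in the sources used here.

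For each gene, the named genes with the closest profile over the 6 dogs were sought by the largest difference, in any dog, between log2(FPKM + 1) values centred on their means. CAT was followed most closely by HAAO, an enzyme of tryptophan breakdown, with a largest difference of 0.05 on the log2 scale, where CAT itself ranged over 0.75, and next by ABCD3, a transporter of peroxisomes (0.07). HAAO had 37.5 to 43.2 FPKM in the control dogs and 26.8 to 31.0 FPKM in the CPP-Se dogs. Among the genes close to SOD2 was LEPROT (largest difference 0.13), with 13.8 to 17.5 FPKM in the control dogs and 7.25 to 11.03 FPKM in the CPP-Se dogs. PRDX2 was nearest to REEP6 (0.31) and ID1 (0.31), which also had their lowest levels, 13.5 FPKM and 11.3 FPKM, in CPP-Se replicate 2. PRDX6 was nearest to KLF5 (0.11) and LGALS8 (0.14), and PRDX1 to ATG4D (0.18) and ORC6 (0.19). SOD1 was nearest to MCM6, a subunit of the replicative helicase, and PRPS1 (0.10 for both). PRDX4 was nearest to GINS3 (0.15) and WDR46 (0.16), and PRDX3 to RGS10 (0.18) and TBC1D15 (0.19). With 6 dogs and so many genes, close profiles can arise by chance, and how often was not counted. These names are a description.

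Of 26 related redox genes, among them thioredoxin reductases, other thioredoxins and dismutases, glutaredoxins, glutathione peroxidases, sestrins and methionine sulfoxide reductases, 22 were tested, and 0 were DEGs (lowest Benjamini-Hochberg adjusted p = 0.202 in limma). Of the 22, 3 had an unadjusted p under 0.05, against 16.0% of all genes tested, and 3 were lower and 0 higher without overlap, against 12.6% and 10.4%. These counts are near the shares in the whole table, and the genes behind them are given as a description. Their log2 fold changes were negative for 14 and positive for 8, with a median of -0.23. The 3 genes with an unadjusted p under 0.05 were TXNRD1, TXNIP and NXN. TXNRD1, the selenoenzyme that reduces thioredoxin, had 23.7 FPKM, 21.1 FPKM and 18.0 FPKM in the control dogs and 14.0 FPKM, 12.6 FPKM and 14.2 FPKM in the CPP-Se dogs, a log2 fold change of -0.58 (standard error 0.18). TXNIP, which binds and inhibits thioredoxin, had 222 FPKM, 194 FPKM and 253 FPKM in the control dogs and 155 FPKM, 142 FPKM and 125 FPKM in the CPP-Se dogs, a log2 fold change of -0.66 (standard error 0.20). NXN, nucleoredoxin, had 1.05 to 3.20 FPKM in the control dogs and 0.488 to 1.24 FPKM in the CPP-Se dogs, which overlapped, and its log2 fold change was -0.79 (standard error 0.33). The third gene without overlap was MSRB1, a selenoprotein that repairs oxidised methionine, with 405 to 436 FPKM in the control dogs and 259 to 391 FPKM in the CPP-Se dogs. TXNRD1, TXNIP and MSRB1 overlapped between the groups with a common total of reads on genes, and without hemoglobin reads TXNRD1 and TXNIP did not overlap and MSRB1 did, at 388 to 415 FPKM against 245 to 482 FPKM.

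By the fixed rule, the largest negative log2 fold changes among the related genes were those of GLRX5, a glutaredoxin of iron-sulfur cluster assembly (-0.95, standard error 0.51), and TXNL1, a thioredoxin-like protein (-0.83, standard error 0.41). GLRX5 ranged from 3.84 to 20.4 FPKM in the control dogs and from 3.66 to 7.11 FPKM in the CPP-Se dogs, so the groups overlapped. TXNL1 had 51.6 to 100.1 FPKM against 25.1 to 70.0 FPKM, also with overlap. The largest positive values were those of the methionine sulfoxide reductase MSRB2 (0.66, standard error 0.38) and TXNRD2 (0.32, standard error 0.33). TXNRD2 is the mitochondrial thioredoxin reductase and, like TXNRD1, a selenoenzyme. SRXN1, the sulfiredoxin that repairs over-oxidised peroxiredoxins, and CCS, the copper chaperone of SOD1, had log2 fold changes of -0.34 and -0.12 with overlap between the groups. GPX1, the glutathione peroxidase of red cells and also a selenoprotein, reached 2680 to 5440 FPKM, far above any of the 8 enzymes. Its log2 fold change was 0.05, and that of GPX3, a further selenoprotein at 0.236 to 2.87 FPKM, was 0.07. SOD3, the extracellular superoxide dismutase, was at 0 in every dog, and TXN2, the mitochondrial thioredoxin, had 128 to 381 FPKM with overlap.

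**Figure D5:**
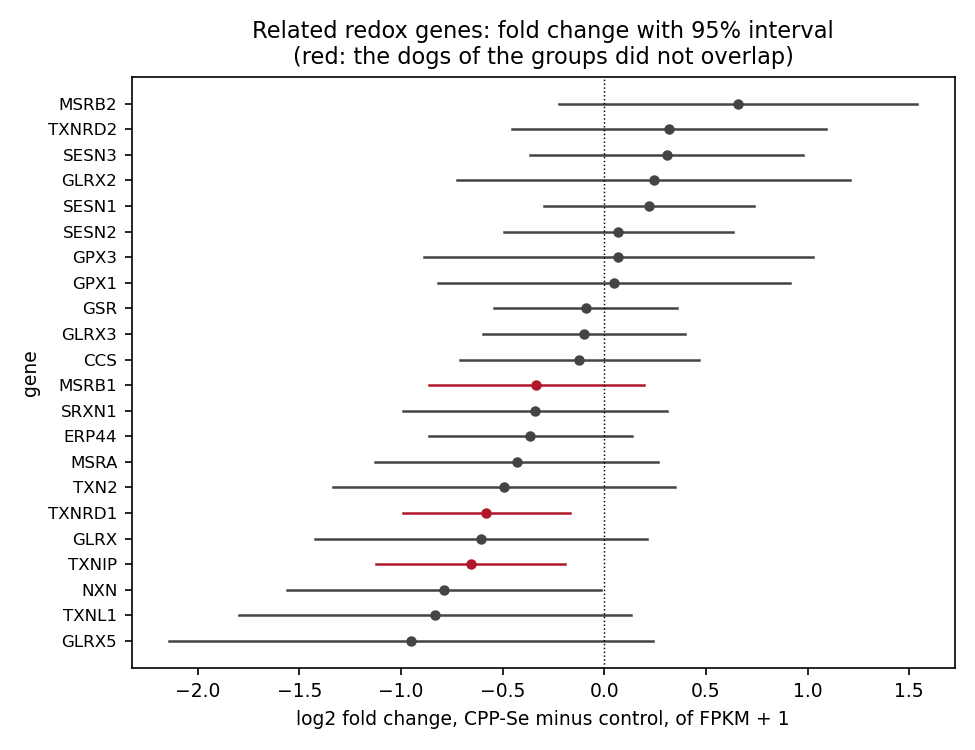
Log2 fold change (CPP-Se minus control, on FPKM + 1) with its 95% interval for the 22 related redox genes tested, in red where no dog of one group overlapped the other group on the FPKM as deposited. TXNRD1, TXNIP and MSRB1 are the 3 genes in red, all with negative values, and all 3 overlapped with a common total of reads on genes.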

How the data were processed

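Blood libraries of 6 dogs (3 control, 3 CPP-Se, grouped by their titles) were compared. The authors enriched poly-A RNA, prepared libraries with the NEBNext Ultra kit, aligned paired reads to Ensembl's release 100 dog genome using HISAT2 2.0.5 and assembled them using StringTie. The submitters' processing notes also list fastp 0.19.7 and featureCounts 1.5.0-p3. The deposited values are FPKM that the authors computed per gene, and the gene length in the table is in bases. FPKM times length gave whole multiples of 1 step per library for 100% of values above 0 (within 0.01 reads, or 1e-06 of the value), which were taken as reads. These counts cover counting error only, and precision is limited by 3 dogs per group.

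Genes whose mean reached 1 FPKM were tested on log2(FPKM + 1) with limma 3.58.1 in R 4.3.3 (eBayes with an intensity trend, two-sided, Benjamini-Hochberg adjustment across all genes tested), after a test on simulated data. Tables and figures were made using numpy 2.4.6, pandas 2.3.3 and matplotlib 3.10.9 under Python 3.11.15. The enzymes and gene lists were chosen with earlier results of these data known. Genes were named by rule: all enzymes, the 2 related redox genes at each extreme, the closest profiles, and unnamed rows described as these proteins. Some genes that the rule or the lists cover are not reported here. The other related redox genes, markers, NFKBIA and the other NF-kappa B genes named were chosen after their values were seen. Marker lists of plasma cells (median log2 fold change 0.21), NK and cytotoxic cells (0.90) and platelets (-0.23) were summarised too. Alternatives were a pseudocount of 0.1, other filters and scalings, eBayes without a trend, array weights, a replicate block, limma-voom on recovered reads, and each dog left out. Rescaled sums and overlaps of gene lists were added after seeing the data. The labels do not say that same-numbered dogs are related. Metabolites, serum values and RT-qPCR were not analysed here.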

Additional observations from a re-analysis of the deposited data

How the results depend on the processing

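Under the 16 alternatives, 0 of the 8 enzymes were DEGs. SOD2, CAT, PRDX6, PRDX2, PRDX1 and SOD1 kept the sign of their log2 fold change in each of them, with SOD2 between -0.84 and -0.50 and CAT between -0.55 and -0.34 (adjusted p 0.186 to 0.740 and 0.183 to 0.867 from limma). The unadjusted p was under 0.05 in 11 of the 16 for SOD2 and in 9 for CAT. With a dog left out, SOD1 lay between 0.20 and 0.62 and PRDX2 between -1.004 and -0.06. PRDX3 turned to 0.049 with a common total of reads on genes and to 0.034 with a common total without hemoglobin, and PRDX4 turned to 0.0066 with the former. With a dog left out, PRDX3 lay between -0.49 and 0.20 and PRDX4 between -0.42 and 0.13 (0.0031 without control replicate 3, 0.087 for PRDX3 without CPP-Se replicate 2). PRDX3 was not tested at a mean FPKM of at least 5.

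The enzymes whose groups did not overlap numbered 1 instead of 2 with a common total of reads on genes (PRDX1; 12.6% of all genes, against 23.0% as reported), 2 without hemoglobin (CAT and PRDX1; 19.8%), and 2 to 5 with a dog left out (29.7% to 36.4%, the highest share with the 5, without CPP-Se replicate 3). These 2 scalings moved the median log2 fold change of all genes to 0.12 and 0.10. Relative to that median, SOD2 was at -0.69 under both and CAT at -0.47 and -0.46. Median ratio scaling left SOD2 and CAT as the enzymes without overlap (23.1% of all genes) and the DEGs over all genes at 3. Over all genes, the 3 DEGs (0 higher, 3 lower; 1572 at an unadjusted p under 0.05) became 0 with a pseudocount of 0.1, 0 with no filter, 1 at a mean FPKM of at least 5, 26 (18 higher, 8 lower) with a common total of reads, 2 without hemoglobin, 1 with limma-voom and 0 to 14 with a dog left out, the 14 without CPP-Se replicate 2. The causes were not tested. With replicate number as a block there was 1 DEG over all genes. The correlation of same-numbered dogs' deviations from their group means was 0.02, -0.09 and -0.04. Such values, 1 for each replicate number, cannot exclude a pairing that the labels do not give. Depth limits SOD1, PRDX3 and PRDX4 most, where counting error is 12.5% to 13.3% of the level.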
